A study of Mus musculus with 8 samples.

Results

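Lipoprotein lipase, its secreted inhibitor Angptl4 and the genes that carry fatty acids into a cell were followed through fibroblasts of the pressure-overloaded mouse heart that had lost either Smad2 and Smad3 or both TGF-beta receptors. The set holds 8 genes out of 34399 gene symbols counted: Angptl4, Angptl2, Lpl, Gpihbp1, Cd36, Fabp4, Pparg and Plin2. They were chosen by name with the knockout-control differences of these same libraries known, including the falls of Angptl4, Lpl and Angptl2 after loss of Smad2/3. Their differences are therefore given as values with a standard error (SE), without a p-value, and serve as support for nothing.

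Lipoprotein lipase is made by fat, muscle and other parenchymal and stromal cells, is secreted, and reaches the inner face of capillaries, where it releases fatty acids from circulating triglyceride-rich lipoproteins. GPIHBP1 on endothelial cells carries it there and holds it in place, while ANGPTL4, induced by fasting, hypoxia and the PPAR receptors, makes the enzyme unfold and lose activity. CD36 takes up the fatty acids, FABP4 binds them inside the cell, PLIN2 coats the lipid droplets in which they are stored, and PPARG is a fatty-acid-sensing nuclear receptor that drives many of these genes in fat cells. The heart depends on this supply of fatty acids as fuel.

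All mice were 8 to 10 weeks old at surgery and carried a tamoxifen-dependent Cre recombinase (MerCreMer) knocked into an endogenous locus, together with a Cre-dependent eGFP reporter in the Rosa locus. All received intraperitoneal tamoxifen at 100 mg/kg on 2 days and then tamoxifen chow at 40 mg/kg until the end, and all underwent transverse aortic constriction (TAC), which narrows the aorta and overloads the left ventricle. GFP-positive cells were sorted from the ventricles 4 weeks later. The Postn-Cre control libraries (HK3 and HK4) came from mice with MerCreMer in Postn, a gene switched on in activated fibroblasts, and the double knockout of Smad2/3 (the Smad2/3 DKO, HK15 and HK16) from mice that were also Smad2 flox/flox and Smad3 flox/flox. The Tcf21-Cre control libraries (HK6 and HK7) came from mice with MerCreMer in Tcf21, a gene of resident fibroblasts, and the Tgfbr1/2 DKO libraries (HK2 and another HK4) from mice that were also flox/flox for both TGF-beta receptors. The labels list no floxed gene for the controls, and leave unsaid whether 1 library stands for 1 animal or for a pool, so that a p-value here speaks for the spread between libraries alone.

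The 2 comparisons differ in sequencing run and Cre driver as well as in the genes deleted, and these cannot be told apart between them. Library totals ran from 21477646 to 32594474 counts, at which 3 counts correspond to 0.092 to 0.14 counts per 1000000 (CPM), for counting error only. Dcn, which encodes the matrix proteoglycan decorin, lay between 8965 and 15433 CPM in the 8 libraries. The sum of 10 fibroblast markers, in which abundant genes weigh most, was lower in both knockouts without overlap. It was at 16175 to 16768 CPM against 18527 to 21252 CPM for Smad2/3. For Tgfbr1/2 it was at 26643 to 27098 CPM against 29234 to 35962 CPM. Taken singly, 4 of the 10 had a log2 fold change above 0 in each comparison, with medians of -0.45 and -0.11. In edgeR 2 had an adjusted p under 0.05 for Smad2/3, and 0 for Tgfbr1/2. Of these markers Col1a1 and Col1a2, both collagen chains, fell in the Smad2/3 DKO, with log2 fold changes of -1.69 ± 0.17 and -1.44 ± 0.14 (adjusted p = 0.0011 for each), alongside Lpl, Angptl4 and Angptl2. In the Smad2/3 run, Smad2 had 95.3 and 82.3 CPM in its controls beside 84.5 and 78.2 CPM in the knockout, and Smad3 had 114 and 92.7 CPM beside 70.5 and 109 CPM. In the receptor run, Tgfbr1 had 229 and 238 CPM in its controls and less in both knockout libraries, 181 and 193 CPM, and Tgfbr2 had 370.1 and 406 CPM beside 471 and 406 CPM. None of the 4 passed the test (edgeR adjusted p between 0.533 and 0.747, Tgfbr1 at -0.24 ± 0.19). The floxed exons are not named in the labels, so whole-gene counts check the labels only in part.

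PPARG and its relatives bind DNA with RXR partners at direct repeats of the half-site AGGTCA, so the RefSeq promoters of the set (GRCm38.p6, 250 bases before to 50 bases after each start site) were searched for it on both strands. RefSeq windows were used for 4 of the 8 genes, Angptl2, Plin2, Cd36 and Pparg, with 6 windows in all. The promoters of Angptl4, Lpl, Gpihbp1 and Fabp4 were not searched. The stretches below are those of every searched window that held the half-site, whatever the level of its gene. The capitals mark the half-site, which reads TGACCT where it lies on the other strand, and each stretch is written along the strand of its gene.
Plin2 chr4:86670245-86670304 (minus strand): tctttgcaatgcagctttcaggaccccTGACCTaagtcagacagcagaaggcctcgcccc
Cd36 chr5:17836092-17836146 (minus strand): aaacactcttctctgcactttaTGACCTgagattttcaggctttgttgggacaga
Pparg chr6:115361089-115361148 (plus strand): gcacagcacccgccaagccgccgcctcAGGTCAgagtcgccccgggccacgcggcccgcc
Pparg chr6:115362313-115362372 (plus strand): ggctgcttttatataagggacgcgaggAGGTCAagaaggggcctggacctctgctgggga

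The half-site began 218 bases before the start site of Plin2, 228 bases before that of Cd36, and 28 and 9 bases before the start sites of 2 of the Pparg windows. It was not found in the window of Angptl2 or in the remaining window of Pparg. Of all 32851 RefSeq promoters of that length, 5340 (16.3%) held the same letters. A direct repeat of AGGTCA spaced by 1 base, which contains the half-site, was in 13 promoters (0.0396%) and in no window of the set. The palindrome GTCTAGAC, to which Smad3 and Smad4 bind, was in 70 promoters (0.213%) and in none of these windows. These are matches of letters within short windows and describe no binding.

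Lpl encodes the lipase itself (GRCm38 chromosome 8, 68880491 to 68907448). It was at 368 and 327 CPM in the Postn-Cre controls and at 133 and 166 CPM in the Smad2/3 DKO. In the other run it was at 591 and 459 CPM in the Tcf21-Cre controls and at 382.5 and 342 CPM in the Tgfbr1/2 DKO. Both knockouts thus lay below both of their own controls. The fitted log2 fold change, knockout minus control, was -1.27 ± 0.17 (SE) after loss of Smad2/3, a mean CPM 2.32-fold lower than in the controls. After loss of the receptors it was -0.45 ± 0.20. Leaving out any 1 library moved the first value between -1.45 and -1.11 and the second between -0.57 and -0.31.

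Angptl4 encodes the inhibitor of the lipase (chromosome 17, 33773750 to 33781830) and had the largest log2 fold change of the set in each comparison. It was at 19.0 and 19.0 CPM in the Postn-Cre controls and at 4.70 and 4.10 CPM in the Smad2/3 DKO. It was at 15.3 and 19.0 CPM in the Tcf21-Cre controls and at 141 and 133 CPM in the Tgfbr1/2 DKO. The 4 control libraries of the 2 runs were close to one another, and the knockouts left that level on opposite sides. The mean was 4.32-fold lower than in the controls after loss of Smad2/3 and 8.01-fold higher after loss of the receptors. The log2 fold changes were -2.17 ± 0.36 and 3.08 ± 0.21 (SE), and their difference in a fit of all 8 libraries was -5.25 ± 0.31. Leaving out any 1 library kept the first between -2.26 and -2.08 and the second between 2.89 and 3.31.

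**Figure D1:**
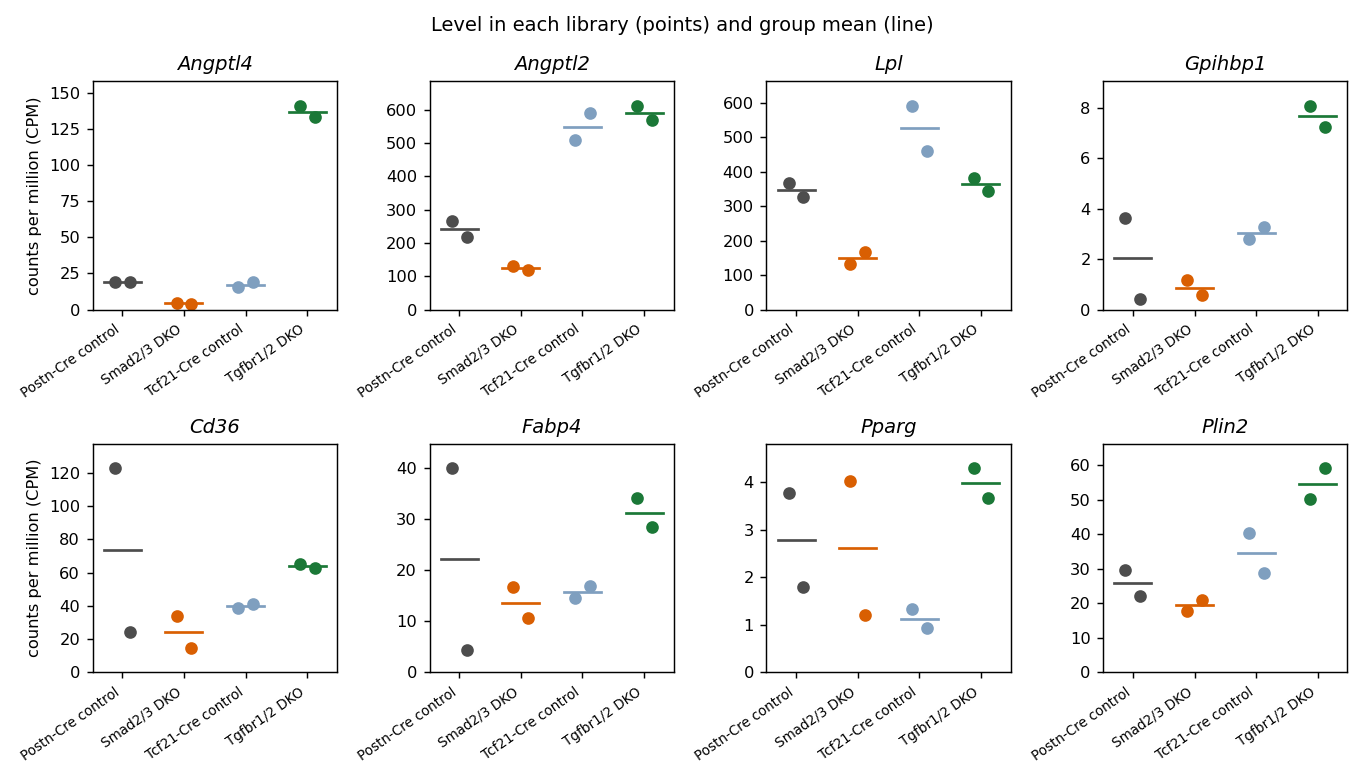
Level of each of the 8 genes in CPM (vertical axis, linear, from 0) in every library (points) with the group mean (line), for the Postn-Cre control, Smad2/3 DKO, Tcf21-Cre control and Tgfbr1/2 DKO groups of 2 libraries. Angptl4 stands at 141 and 133 CPM in the Tgfbr1/2 DKO and below 5 CPM in the Smad2/3 DKO, while 1 Postn-Cre control library, HK3, is far above the other in Cd36, Fabp4 and Gpihbp1.

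Because lipase and inhibitor moved unequally, their balance at the RNA level differed between groups. The ratio of Lpl to Angptl4 was taken per library on CPM per kilobase of exon, which allows a comparison between genes of different length. It was 6.52 and 5.82 in the Postn-Cre controls and 9.56 and 13.7 in the Smad2/3 DKO. It was 13.1 and 8.18 in the Tcf21-Cre controls and 0.914 and 0.869 in the Tgfbr1/2 DKO. Per length, Angptl4 was thus above Lpl in both Tgfbr1/2 DKO libraries, and Lpl above Angptl4 in the other 6. In plain CPM Lpl was above Angptl4 in the Tgfbr1/2 DKO too, with ratios of 2.7 and 2.57. The order of the pair there therefore depends on the lengths used. These are unions of all annotated exons, 10478 bases for Lpl and 3541 for Angptl4.

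Angptl2 encodes a secreted relative of Angptl4 that acts on vascular and inflammatory cells and is not known for inhibiting the lipase (chromosome 2, 33216069 to 33247717). Ralgps1 overlaps it on the other strand, and no strand-marking step is described, so reads of the pair cannot be told apart where they overlap. It was at 266 and 219 CPM in the Postn-Cre controls and at 130 and 119 CPM in the Smad2/3 DKO. It was at 508.4 and 589 CPM in the Tcf21-Cre controls and at 612 and 569.8 CPM in the Tgfbr1/2 DKO. The groups were apart in the Smad2/3 comparison and overlapped in the other. The log2 fold changes were -1.02 ± 0.17 and 0.18 ± 0.21 (SE).

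Gpihbp1, the endothelial anchor of the lipase (chromosome 15, 75596628 to 75599481), was per length the lowest or next to lowest of the set in every group. It was at 3.65 and 0.435 CPM in the Postn-Cre controls and at 1.18 and 0.559 CPM in the Smad2/3 DKO. Those 4 values rest on 95, 10, 30 and 12 counts and overlap, and the log2 fold change of -1.30 ± 1.03 (SE) became 0.95 without control HK3. In the other run it was at 2.81 and 3.29 CPM in its controls and at 8.10 and 7.25 CPM in the Tgfbr1/2 DKO, without overlap. That log2 fold change was 1.41 ± 0.34.

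Cd36, the fatty acid translocase of the cell surface (chromosome 5, 17781690 to 17888801), was at 123 and 24.0 CPM in the Postn-Cre controls and at 33.6 and 14.4 CPM in the Smad2/3 DKO. The lower control fell between the DKO libraries, and the log2 fold change of -1.68 ± 0.82 (SE) shrank to -0.04 without control HK3. In the other run Cd36 was at 39.0 and 41.2 CPM in its controls and at 65.2 and 62.6 CPM in the Tgfbr1/2 DKO. That log2 fold change was 0.75 ± 0.18, and it stayed between 0.67 and 0.86 when any 1 library was left out.

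Fabp4, the fatty acid chaperone of fat cells and capillary endothelium (chromosome 3, 10204088 to 10208576), was likewise spread widely over the Postn-Cre controls. It was at 39.9 and 4.44 CPM in the Postn-Cre controls, which enclosed the Smad2/3 DKO at 16.6 and 10.6 CPM. The log2 fold change of -0.78 ± 0.76 (SE) became 1.57 without control HK3 and -1.62 at its lowest. It was at 14.5 and 16.9 CPM in the Tcf21-Cre controls and at 34.0 and 28.4 CPM in the Tgfbr1/2 DKO, a log2 fold change of 1.06 ± 0.22.

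Pparg, the nuclear receptor (chromosome 6, 115360951 to 115490399, where the antisense gene Gm44079 overlaps it), was at or below 4.295 CPM in all 8 libraries. It was at 3.77 and 1.78 CPM in the Postn-Cre controls and at 4.04 and 1.21 CPM in the Smad2/3 DKO, so that the DKO enclosed the controls. The log2 fold change was -0.15 ± 0.75 (SE), and -1.25 without DKO HK15. It was at 1.34 and 0.924 CPM in the Tcf21-Cre controls and at 4.295 and 3.67 CPM in the Tgfbr1/2 DKO, which rest on 39 and 27 counts against 140 and 110. That log2 fold change was 1.90 ± 0.45.

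Plin2, the coat protein of lipid droplets (chromosome 4, 86648386 to 86670060), was at 29.7 and 22.1 CPM in the Postn-Cre controls and at 17.8 and 21.1 CPM in the Smad2/3 DKO. It was at 40.3 and 28.6 CPM in the Tcf21-Cre controls and at 50.1 and 59.1 CPM in the Tgfbr1/2 DKO. The groups were apart in both runs, lower in one knockout and higher in the other. The log2 fold changes were -0.47 ± 0.30 and 0.76 ± 0.22 (SE). Plin2 was called in neither comparison. The groups of Angptl4 were apart in opposite directions too. How many of all genes were so was not counted, so nothing is read from it.

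**Figure D2:**
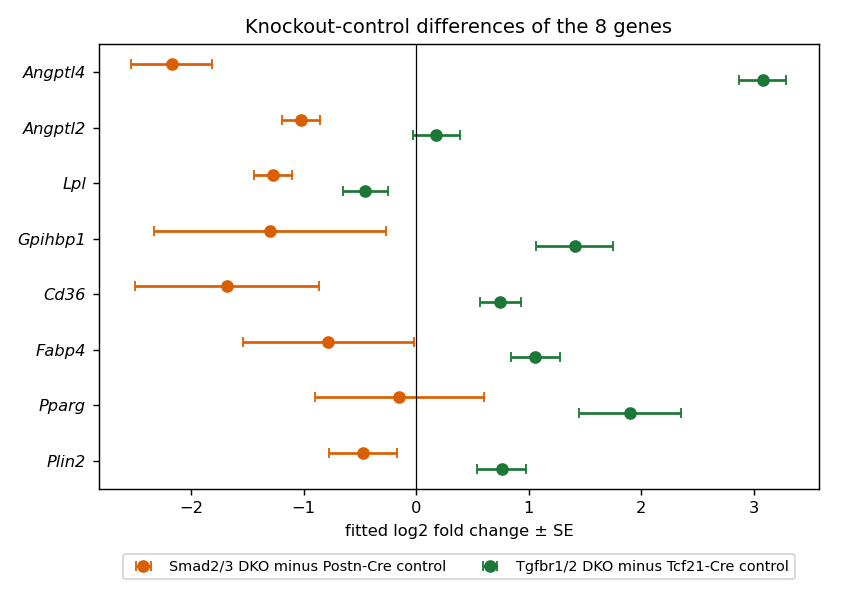
Fitted log2 fold change (horizontal axis, knockout minus control) with its standard error (bars) for the 8 genes, in orange for Smad2/3 DKO against Postn-Cre control and in green for Tgfbr1/2 DKO against Tcf21-Cre control. Angptl4 lies at -2.17 and 3.08, Lpl is below 0 in both, and the bars of Gpihbp1, Cd36, Fabp4 and Pparg are widest in the Smad2/3 comparison.

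All 8 genes passed the low-count filter. With a gene called where its edgeR adjusted p over all genes tested was under 0.05, 3 of the 8 were called lower in the Smad2/3 DKO (Angptl4, Angptl2 and Lpl), against 0.844% of the 15760 genes tested, and none higher. Without DKO HK15 or without DKO HK16 the call of Lpl remained and those of Angptl4 and Angptl2 ended. Without control HK4, Cd36 and Fabp4 were called lower as well, which made 5. The median log2 fold change of the 8 was -1.15, beside 0.01 for all genes tested. Since the genes were chosen with this comparison known, nothing is read from the share.

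After loss of the receptors, 5 of the 8 were called higher (Angptl4, Cd36, Fabp4, Gpihbp1 and Pparg), against 2.64% of the 16658 genes tested, and none lower, against 1.31%. The median of the 8 was 0.91, beside -0.01 for all genes. Only the call of Angptl4 held when each of the 4 libraries was left out in turn. Fabp4 kept its call without control HK7 and lost it without HK6, HK2 or HK4, and Cd36, Gpihbp1 and Pparg lost theirs without any 1 of the 4. Cd36 also lost its call with DESeq2-type size factors, and Cd36, Gpihbp1 and Pparg lost theirs without robust estimation. In a fit of all 8 libraries Angptl4 alone was called. For the difference between the 2 effects, Angptl4 and Angptl2 were called of the 8, against 1.83% of 17770 genes in either direction, and Angptl2 lost that call without any 1 library other than Postn-Cre control HK4. The count was 5 without that library, 6 without the low-count filter, 4 with DESeq2 and 1, Angptl4, without robust estimation. Plin2 was among the 6 and the 4. Here too the genes were chosen with the comparisons known, so nothing is read from these shares.

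The authors' deposited table gives a log2 fold change without a test. For the Smad2/3 comparison, the authors' deposited table lists Angptl4 at -2.12, Lpl at -1.22, Angptl2 at -0.96 and Plin2 at -0.40, each within 0.1 of the fitted value, and Cd36 at -1.30, Gpihbp1 at -0.82, Fabp4 at -0.01 and Pparg at 0.05. For the Tgfbr1/2 comparison, the authors' deposited table lists Angptl4 at 3.01, Gpihbp1 at 1.33, Fabp4 at 0.99, Plin2 at 0.68, Cd36 at 0.67, Angptl2 at 0.11 and Lpl at -0.53. Pparg is at 1.00 in the authors' deposited table, against 1.90 in the edgeR fit.

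Per kilobase of exon, Angptl2 and Lpl had the highest values of the set in the controls of both runs. The length is the union of all annotated exons of a gene. For Fabp4 this union, 4489 bases, takes in its whole gene span, which lowers its value. The order of the genes below therefore depends on these lengths. In the Postn-Cre controls Angptl2 was at 38.6 ± 5.28 CPM per kilobase (SD, n = 2) and Lpl at 33.2 ± 2.71, a gap close to the spread of Angptl2. Cd36 followed at 20.4 ± 19.5, then Plin2 at 7.37 ± 1.55, Angptl4 at 5.37 ± 0.00582, Fabp4 at 4.94 ± 5.58, Pparg at 0.940 ± 0.476 and Gpihbp1 at 0.801 ± 0.891. The wide spreads of Cd36, Fabp4 and Gpihbp1 leave their places in that order unsettled. In the Smad2/3 DKO Angptl4 stood below Fabp4, at 1.24 ± 0.120 against 3.02 ± 0.945. In plain CPM the mean of Angptl4 was below that of Fabp4 in the Postn-Cre controls already, at 19.02 against 22.16.

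In the Tcf21-Cre controls Angptl2 was at 87.3 ± 9.11 CPM per kilobase (SD, n = 2) and Lpl at 50.1 ± 8.90, with Cd36 at 11.2 ± 0.443 and Plin2 at 9.81 ± 2.34 next and within 1 SD of Plin2 of each other. Angptl4 was at 4.84 ± 0.742, Fabp4 at 3.50 ± 0.380, Gpihbp1 at 1.19 ± 0.132 and Pparg at 0.383 ± 0.0987. In the Tgfbr1/2 DKO Angptl4 rose to the place behind Angptl2, at 38.8 ± 1.66 against 94.0 ± 4.78, and Lpl was at 34.6 ± 2.70. In plain CPM Lpl stayed above Angptl4 there, at a mean of 362.4 against 137.3.

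Cd36, Fabp4 and Gpihbp1 are genes of capillary endothelium as well as of other cells, so markers of the cell types the sort could hold were read beside them. In bulk RNA, fewer cells of a type and less RNA per cell cannot be told apart. The 19 endothelial markers summed to 702 CPM in Postn-Cre control HK3, where Cd36, Fabp4 and Gpihbp1 were highest of the run, and to 369 CPM in control HK4. They summed to 346 and 232 CPM in the Smad2/3 DKO, where 17 of the 19 had a log2 fold change below 0, with none called and a median of -1.20. In the other run the sums were 641 and 620 CPM among the controls, and 800 and 757 CPM in the Tgfbr1/2 DKO. There 15 of the 19 were above 0 with a median of 0.56, and 2 were called, Cav1 at 0.82 ± 0.18 (adjusted p = 0.0365) and Eng at 0.78 ± 0.18 (adjusted p = 0.0423). Both of those calls ended without any 1 of the 4 libraries. Tek, an endothelial receptor among the 3 most abundant of these markers, went the other way, at -0.67 ± 0.19 (adjusted p = 0.0772).

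The 3 genes were also expressed relative to that sum. Per 1000 CPM of endothelial markers, Cd36 was at 60.8 and 66.5 in the controls and 81.4 and 82.6 in the Tgfbr1/2 DKO. Fabp4 was at 22.7 and 27.3 against 42.5 and 37.6, and Gpihbp1 at 4.38 and 5.30 against 10.1 and 9.58. The ratio of the Tgfbr1/2 DKO to its controls was smaller on this scale than in CPM. It was 1.29 against 1.59 for Cd36, 1.60 against 1.98 for Fabp4 and 2.03 against 2.52 for Gpihbp1. The higher marker sum of that DKO makes the ratio of any gene smaller on this scale. The direction of the shift is thus fixed and says nothing of these 3 genes. In the Smad2/3 run the controls remained apart on this scale. Cd36 was at 175 and 65.1 in the controls and at 97.2 and 62.1 in the Smad2/3 DKO. The ratio of the Smad2/3 DKO to its controls was 0.663 on this scale against 0.327 in CPM for Cd36. It was 0.909 against 0.424 for Gpihbp1 and 1.36 against 0.612 for Fabp4. The lower marker sum of the Smad2/3 DKO likewise makes the ratio of any gene larger on this scale. The part of endothelial cells in these differences was not tested.

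**Figure D3:**
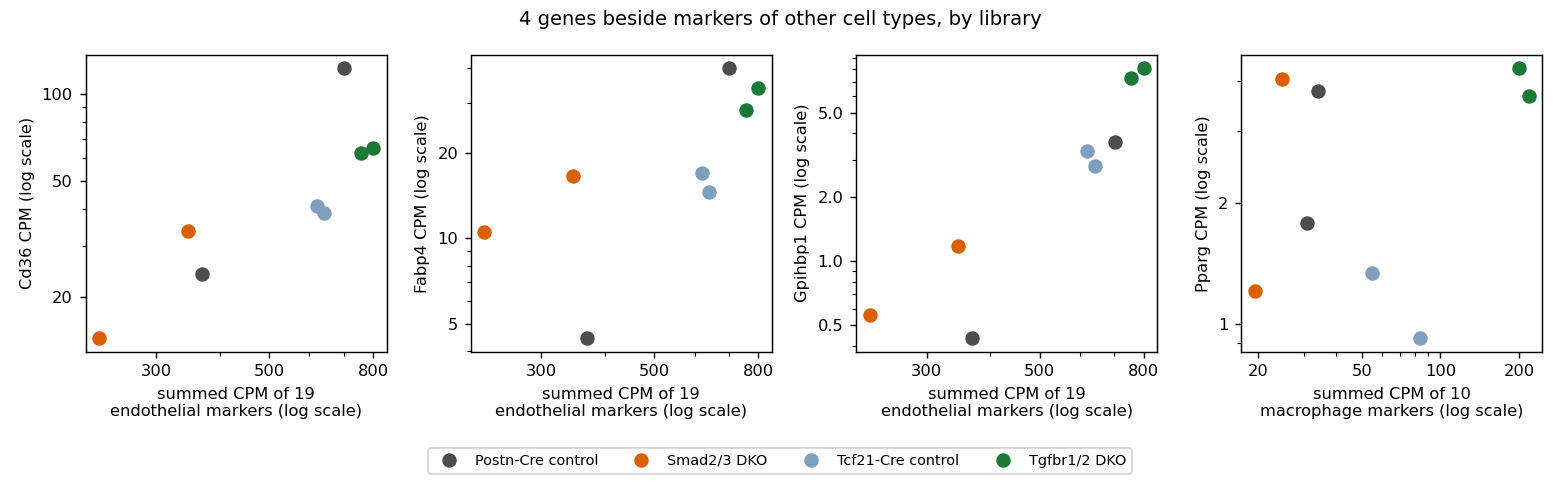
Level of Cd36, Fabp4 and Gpihbp1 against the summed level of 19 endothelial markers, and of Pparg against the summed level of 10 macrophage markers, in each of the 8 libraries (points, coloured by group; all axes in CPM on log scales). Postn-Cre control HK3 stands at 702 CPM of endothelial markers and 123 CPM of Cd36, and both Tgfbr1/2 DKO libraries stand at the right of the macrophage axis, at 200 and 218 CPM.

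Macrophages express Cd36, Plin2 and Pparg too. The 10 macrophage markers summed to 34.0 and 30.8 CPM in the Postn-Cre controls and 24.8 and 19.5 CPM in the Smad2/3 DKO, where the 5 that could be tested were all below 0 and none was called. They summed to 54.9 and 83.5 CPM in the Tcf21-Cre controls and 200 and 218 CPM in the Tgfbr1/2 DKO, where all 10 were above 0 and 3 were called, with a median of 1.87. Among the 3 was Cd74, the invariant chain of antigen presentation, at 1.61 ± 0.33 (adjusted p = 0.0379), which lost its call without control HK6 or DKO HK4. Lyz2, lysozyme of myeloid cells, was at 9.90 and 26.6 CPM in those controls and 82.5 and 90.6 CPM in that DKO. Its log2 fold change of 2.31 ± 0.53 was not called (adjusted p = 0.103). Cd68, also among the 3 most abundant of these markers, was at 22.1 and 13.8 CPM against 18.4 and 15.5 CPM. It was at 0.01 ± 0.26 (adjusted p = 0.991). The higher Cd36, Plin2 and Pparg of the Tgfbr1/2 DKO came in the same libraries as the higher sum of macrophage markers. The part of macrophages in them was not tested.

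Most markers of fat cells, the classic site of Pparg and Fabp4, were near 0: 6 of 8 (Adipoq, Retn, Cfd, Plin1, Cidec and Adrb3) were below 1 CPM in every library. The sum over all 8 adipocyte markers was 2.15 and 1.74 CPM in the Postn-Cre controls and 4.00 and 1.02 CPM in the Smad2/3 DKO. It was 6.99 and 7.84 CPM in the Tcf21-Cre controls and 15.6 and 7.32 CPM in the Tgfbr1/2 DKO, most of it from Lipe, the hormone-sensitive lipase. The 10 cardiomyocyte markers summed to 219 and 186 CPM in the Postn-Cre controls against 129 and 129 CPM in the Smad2/3 DKO. In the other run they overlapped, with controls at 178 and 255 CPM and the Tgfbr1/2 DKO at 233 and 157 CPM. The sums of 9 pericyte and smooth muscle markers overlapped in both runs, at 1606 and 889 against 1092 and 814 CPM, and at 1147 and 754 against 1104 and 1162 CPM. Of the 9, 8 were below 0 in the Smad2/3 comparison, where the potassium channel gene Kcnj8 fell by 3.17 ± 0.54 (adjusted p = 0.0177, lost without control HK3). In the other, 7 were above 0 and Acta2, smooth muscle actin, rose by 1.09 ± 0.19 (adjusted p = 0.014, lost without control HK7 or DKO HK4). The part of these cells in the differences of the 8 genes was not tested.

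The rest of the pathway was read from lists of genes. Of 95 other genes in 6 lists, 81 were tested in the Smad2/3 comparison. Of these, 1 was called higher (1.23%, against 0.451% of all genes tested) and none lower. In edgeR 13 had an unadjusted p under 0.05, as had 2137 of all 15760 genes (13.6%). After loss of the receptors 82 were tested, and 2 were called higher (2.44%, against 2.64% of all genes) and none lower. There 17 (20.7%) had an unadjusted p under 0.05 in edgeR, as had 3332 of all 16658 genes. Both of these shares are near those of all genes. The median log2 fold change over the lists was 0.02 and 0.21, beside 0.01 and -0.01 for all genes.

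Among 16 genes of fatty acid uptake and activation, none of the 15 tested was called in the Smad2/3 comparison. The median there was 0.34, and 2 had an unadjusted p under 0.05 in edgeR. Of 14 tested in the Tgfbr1/2 comparison 2 rose (median 0.35), Got2 and Acsl5. Got2, the mitochondrial aspartate aminotransferase that has also been described as a fatty acid binding protein of the plasma membrane, was at 50.5 and 61.2 CPM in its controls and 99.3 and 105 CPM in the Tgfbr1/2 DKO. It rose by 0.95 ± 0.20 on the log2 scale (adjusted p = 0.0283), a call that ended without control HK6 or DKO HK4. Acsl5, which activates fatty acids with coenzyme A, was at 48.4 and 45.5 CPM against 80.0 and 75.0 CPM. It rose by 0.80 ± 0.18 (adjusted p = 0.0325), a call that ended without any 1 of the 4 libraries (up to 0.164), without robust estimation and in the fit of all 8 libraries (0.129). The most abundant genes of this list were Acsl4 and Dbi, the acyl-CoA binding protein. In the Tgfbr1/2 comparison Acsl4 was at 0.23 ± 0.49 (adjusted p = 0.847) and Dbi at 0.74 ± 0.19 (adjusted p = 0.0632). In the Smad2/3 comparison they were at -0.55 ± 0.21 (adjusted p = 0.274) and 0.57 ± 0.25 (adjusted p = 0.353). Without the low-count filter Acsl4 was called lower there (edgeR adjusted p = 0.0366).

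Among 18 genes of fatty acid oxidation and PPAR targets, 1 of 15 tested was called higher in the Smad2/3 comparison (median -0.03). None of 16 was called in the other (median 0.34, 12 of 16 above 0). The gene that rose was Pdk4, a PPAR target that holds back glucose oxidation in favour of fatty acids. It was at 7.35 and 6.31 CPM in the Postn-Cre controls and 21.9 and 21.1 CPM in the Smad2/3 DKO, while Angptl4, another PPAR target, was lower there. Pdk4 rose by 1.59 ± 0.34 on the log2 scale (adjusted p = 0.0497), and its call ended without any 1 of the 4 libraries (up to 0.201) and with unsummed entries (0.0509). The same gene was at -0.04 ± 0.23 (adjusted p = 0.952) in the Tgfbr1/2 comparison. Cpt1a, which admits fatty acids to mitochondria, was at -0.20 ± 0.23 (adjusted p = 0.799) and 0.47 ± 0.21 (adjusted p = 0.237), and Hadhb of beta-oxidation at -0.03 ± 0.19 (adjusted p = 0.973) and 0.39 ± 0.19 (adjusted p = 0.289).

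**Figure D4:**
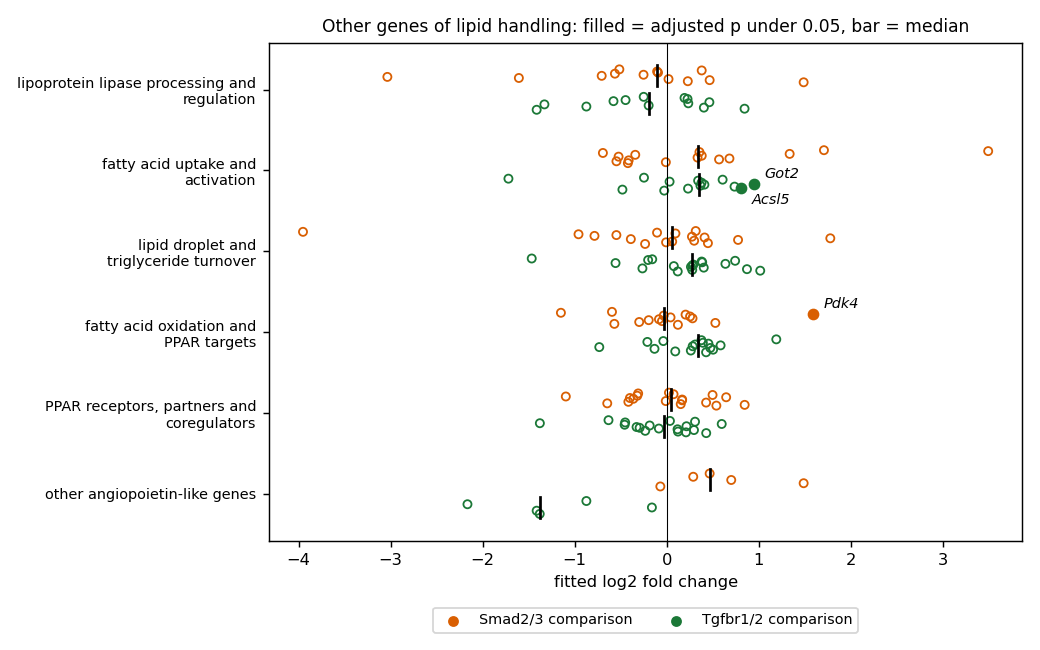
Fitted log2 fold change (horizontal axis) of the other genes of 6 lists of lipid handling, in orange for the Smad2/3 and in green for the Tgfbr1/2 comparison, with filled points for an edgeR adjusted p under 0.05 and a black bar at each median. Pdk4 at 1.59, Got2 at 0.95 and Acsl5 at 0.80 are the filled points.

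In the main fits the PPAR receptors and their partners, 18 tested in each comparison, held no call in either. The medians were 0.05 and -0.02, with 5 and 3 at an unadjusted p under 0.05 in edgeR. Ppard, the receptor of the family expressed in most tissues, was at 35.5 and 31.2 CPM in the Postn-Cre controls and 15.3 and 17.2 CPM in the Smad2/3 DKO, a log2 fold change of -1.10 ± 0.27 (adjusted p = 0.0896). It was at 41.3 and 23.7 CPM in the Tcf21-Cre controls and 46.8 and 45.5 CPM in the Tgfbr1/2 DKO, at 0.60 ± 0.24 (adjusted p = 0.202). The difference between those effects passed the threshold, at -1.70 ± 0.36 (adjusted p = 0.0411), as did that of Got2, at -1.48 ± 0.30 (adjusted p = 0.0339). They were the 2 of 84 genes of the lists that did, both lower (2.38%). Of all 17770 genes tested, 1.17% were called lower and 1.83% in either direction. Each lost that call when 1 of 7 of the 8 libraries was left out, all but Tcf21-Cre control HK6 for Ppard and HK7 for Got2. Ncor1, a corepressor, was at 0.17 ± 0.14 (adjusted p = 0.682) and -0.33 ± 0.19 (adjusted p = 0.384) in the Smad2/3 and Tgfbr1/2 comparisons, and Ebf1, a fat-cell lineage factor, at -0.65 ± 0.17 (adjusted p = 0.0968) and -0.23 ± 0.19 (adjusted p = 0.532).

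Neither the 13 tested genes of lipoprotein lipase processing and regulation nor the lipid droplet and triglyceride genes (17 and 18 tested) held a call in either comparison. By edgeR, 3 and 4 of the former and 1 and 2 of the latter had an unadjusted p under 0.05. The medians were -0.10 and -0.20 for the former and 0.06 and 0.28 for the latter. Sel1l, which lets the lipase leave the endoplasmic reticulum, was at 0.38 ± 0.17 (adjusted p = 0.366) and 0.19 ± 0.19 (adjusted p = 0.613). Pcsk6, a proprotein convertase of the family that cleaves the lipase and the angiopoietin-like proteins, was at -0.09 ± 0.20 (adjusted p = 0.904) and -0.45 ± 0.19 (adjusted p = 0.225). Abhd5, the activator of triglyceride lipase, was at -0.23 ± 0.16 (adjusted p = 0.598) and 0.12 ± 0.19 (adjusted p = 0.780), and Dgat1, which makes triglycerides, at 0.30 ± 0.30 (adjusted p = 0.745) and -0.26 ± 0.20 (adjusted p = 0.514).

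Of the 5 other angiopoietin-like genes none was called in the main fits, and none had an unadjusted p under 0.05 there in either comparison by edgeR. In the Tgfbr1/2 comparison all 5 were below 0 (median -1.38), and in the Smad2/3 comparison 4 of 5 were above 0 (median 0.47). Angptl7 was at 88.6 and 297 CPM in the Tcf21-Cre controls and 30.7 and 51.1 CPM in the Tgfbr1/2 DKO, a log2 fold change of -2.17 ± 0.84 (adjusted p = 0.311). Control HK7 was also far above HK6 in Angptl1, at 105 against 24.8 CPM, with 18.0 and 29.6 CPM in that DKO (-1.38 ± 0.94, adjusted p = 0.534). Without HK7, Angptl1 was at 0.10, Angptl7 at -0.95, and 4 of the 5 genes were below 0, with a median of -0.95. Without HK6 instead, Angptl1 and Angptl7 both lay further below 0 than in the main fit. There 4 of the 5 genes were below 0, with a median of -1.16. The values of these 2 genes thus depend on which control is kept. The median was -0.91 without DKO HK4, with 4 of 5 below 0, and -1.78 without DKO HK2, with all 5 below 0.

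The profile of Angptl4 over the 8 libraries, with the mean of each run taken off the log2 CPM, was most like those of Galnt2 (Pearson r = 0.984), Aebp1 (0.982), Psma7 (0.982), Myo1c (0.981) and Lman1 (0.979) among 7796 genes with a mean of at least 10 CPM. Galnt2 starts mucin-type O-glycosylation, Aebp1 encodes a matrix protein, Psma7 a proteasome subunit, Myo1c a membrane-bound myosin and Lman1 a cargo receptor of the secretory route. All 5 lay lower in the Smad2/3 DKO and higher in the Tgfbr1/2 DKO, as the choice by likeness fixes, but over a far smaller range. Their log2 fold changes were -0.45 to -0.67 and 0.60 to 0.89, against -2.17 and 3.08 for Angptl4. The 8 libraries form 4 groups of 2, so the correlations describe them and no more.

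**Figure D5:**
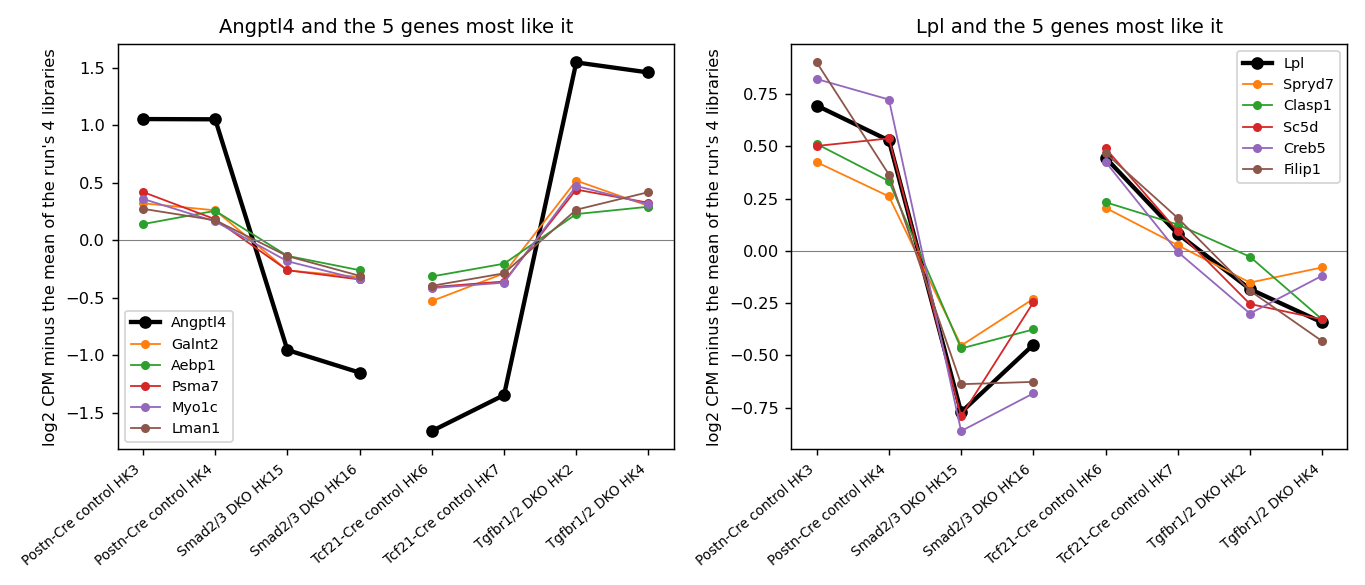
Log2 CPM minus the mean of the 4 libraries of the same run (vertical axis) in each of the 8 libraries, for Angptl4 (left) and Lpl (right) in black with the 5 genes whose profile had the highest Pearson correlation with each. The 5 genes nearest to Angptl4 follow its order of groups over a much smaller range. Those nearest to Lpl span ranges closer to its own, narrower for Spryd7 and Clasp1.

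The profile of Lpl was most like those of Spryd7 (r = 0.983), Clasp1 (0.979), Sc5d (0.979), Creb5 (0.973) and Filip1 (0.970). Clasp1 binds microtubule ends, Sc5d works in cholesterol synthesis and Creb5 is a transcription factor. Here the sizes were closer to those of the gene itself, which was at -1.27 and -0.45 in the Smad2/3 and Tgfbr1/2 comparisons. Creb5 was at -1.60 ± 0.20 and -0.34 ± 0.20 (SE), Filip1 at -1.35 ± 0.32 and -0.55 ± 0.21, and Sc5d at -1.07 ± 0.33 and -0.51 ± 0.24. The 2 nearest to Lpl in profile were smaller, Spryd7 at -0.74 ± 0.38 and -0.15 ± 0.26 and Clasp1 at -0.91 ± 0.18 and -0.27 ± 0.18. A prior count of 0.5 in place of 1 gave the same 5 genes for Angptl4 and the same 5 for Lpl.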

How the data were processed

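Both tables the authors deposited hold expected counts, called raw per the file headers, for 38087 Ensembl entries, and 12.63% of the values above 0 were whole (tolerance 1e-06). Per the submitters' processing notes the genome was mm10. Which aligner and counter were used is not given in the sources used here. RNA was amplified with the NuGEN Ovation kit and tagmented with Nextera XT, per the labels' protocols, with no strand marking described. The log2 fold changes printed as the authors' were deposited by them without a test.

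Counts were rounded, and 3966 entries were summed into 278 symbols. CPM is the count over the library total times 1000000. Positions and exon lengths are from GENCODE vM21 (GRCm38). edgeR 4.0.16 (R 4.3.3) was fitted to the 4 libraries of each comparison (TMM scaling, filterByExpr, robust quasi-likelihood F test, two-sided, Benjamini-Hochberg over all genes tested, threshold 0.05), and the difference to all 8. SE was derived from the F statistic. An adjusted p is from these fits, which were tested on simulated data, unless its sentence names another setting or a library left out. The alternatives were DESeq2-type size factors, no low-count filter, DESeq2 1.42.0, no robust estimation, a fit of all 8 libraries, TMM-scaled or per-kilobase levels, a prior count of 0.5 and leaving out each library. Unsummed entries, levels relative to endothelial markers, and the count of the 8 genes called under each setting, were added after seeing the data.

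The 8 genes and the lists were chosen with earlier results of these data known. Named beside the 8 and the targeted genes are list genes past the threshold (up to 6 a list), the 2 most abundant genes of each pathway list, up to 3 of each marker list, called pericyte and fibroblast markers (added after their values were seen), and the 5 genes most like Angptl4 and Lpl (log2 CPM, prior count 1, mean of at least 10 CPM, no predicted genes or pseudogenes).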

Additional observations from a re-analysis of the deposited data

Results flagged for a closer look

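Angptl4 lay below both controls in both Smad2/3 DKO libraries and above both controls in both Tgfbr1/2 DKO libraries, a difference between the log2 fold changes of -5.25 that was called by edgeR and is a description, since the gene was chosen with both known. Plin2 was lower in the one and higher in the other in the same way, with a difference of -1.24 that was not called by edgeR and was called with DESeq2 and without the low-count filter. The difference passed the threshold in edgeR for Got2, at -1.48 ± 0.30 (adjusted p = 0.0339), and for Ppard, at -1.70 ± 0.36 (adjusted p = 0.0411). For both genes, both Smad2/3 DKO libraries lay below both controls and both Tgfbr1/2 DKO libraries above both of theirs. Run, Cre driver and targeted genes change together between the comparisons and cannot be told apart.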

How the results depend on the processing

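No log2 fold change of the 8 genes reversed a call under any alternative, and 11 of 264 moved by more than 1 SE. Of 855 values of list and like genes, 73 lost their call and 27 gained one. Most of these genes had no call to lose, so the 855 are not the base for the 73. The count of called genes in the Smad2/3 comparison was 204, and 819 without the filter, 771 with DESeq2 and 105 (without DKO HK15) to 297 (without control HK4) leaving out 1 library. In the Tgfbr1/2 comparison it was 659, and 1233, 1104, 299 in the fit of all 8 libraries and 271 (without DKO HK4) to 484 (without control HK6). For the difference it was 326, and 1194, 1138 and 89 (without Tgfbr1/2 DKO HK4) to 302. List genes called in the Smad2/3 comparison were 1, and 4 without the filter, 3 with DESeq2, 0 with unsummed entries and 0 leaving out any 1 library. In the Tgfbr1/2 comparison they were 2, and 4, 4, 1 without robust estimation, 1 in the fit of all 8 libraries and 0 to 2 leaving out 1 library. For the difference they were 2, and 9, 5 and 0 to 2. Of the 8 genes, 3 were called in the Smad2/3 comparison and 1 to 5 leaving out 1 library. In the Tgfbr1/2 comparison 5 were, and 2 without robust estimation, 1 in the fit of all 8 libraries and 1 to 2 leaving out 1 library. For the difference 2 were, and 6, 4, 1 without robust estimation and 1 to 5 leaving out 1 library. The causes were not tested. No paired analysis was possible because the groups compared share no library number. Gpihbp1 and Pparg rest on few counts, as low as 10 and 26 in a library.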
